A study of Mus musculus with 8 samples.

Results

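Interferon-stimulated genes are the genes that cells switch on when an interferon binds its receptor, and 44 of them were followed here in neutrophils of the mouse spleen. The genes were picked by symbol as known targets of type I interferon (interferon alpha and beta) or type II interferon (interferon gamma), with the Ifitm family left out. All 44 were found among the 55414 genes that the count files list. Of these, 43 had enough counts to be tested, and *Ifi44* had no count in any library.

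Type I interferons bind the receptor made of Ifnar1 and Ifnar2, whose kinases Jak1 and Tyk2 phosphorylate transcription factors of the STAT family. Stat2 and Irf9 are parts of a complex that binds the interferon-stimulated response element (ISRE) in target genes. Type II interferon binds Ifngr1 and Ifngr2, and the signal reaches a different element, the gamma-activated site (GAS). The target genes encode proteins that sense, cut or block viral RNA, modify proteins with the ubiquitin-like Isg15, or attack intracellular pathogens, and neutrophils are known to express many of them.

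The study asked how the chemokine receptor Cxcr2 shapes the maturation of neutrophils. Spleens of 4 WT and 4 *Cxcr2-/-* mice were used, and each mouse gave 1 RNAseq library. The *Cxcr2-/-* mice, labelled FVB like the WT mice after backcrossing to that strain, lack the receptor in all their cells and not in neutrophils alone. All mice were 10 weeks old and kept in SOPF (specific and opportunistic pathogen free) housing, and no infection or treatment is named. Cells were enriched by positive selection for CD11b and then sorted as CD45+ CD11b+ Ly6G+ F4/80-.

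The counts on genes ran from 34220182 to 46233555 in the WT and from 37549648 to 43789253 in the *Cxcr2-/-* libraries. Read pairs that matched no counted feature were a larger share in WT (31.4% to 41.5%) than in *Cxcr2-/-* libraries (26.7% to 31.9%). Whether these pairs lay within or outside genes is not known, and their part in the changes was not tested. Levels are in CPM, the counts on a gene after TMM scaling to a common library size, and every fold change is *Cxcr2-/-* over WT on the log2 scale. *Cxcr2* itself checked the labels, with 1719 to 2252 CPM in WT mice against 12.9 to 20.7 CPM in *Cxcr2-/-* mice. All 10 neutrophil markers were present in both groups, and *Ly6g* averaged 226 ± 41.5 CPM in WT and 539 ± 50.5 CPM in *Cxcr2-/-* mice (SD, n = 4 each).

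The comparison asks which interferon-stimulated genes differ between WT and *Cxcr2-/-* neutrophils. They did not move together: 9 were higher and 6 were lower in *Cxcr2-/-* neutrophils, and 28 did not pass the test (edgeR quasi-likelihood test, Benjamini-Hochberg adjusted p under 0.05 over 16778 genes). The steepest rises were in *Zbp1*, *Oas2*, *Slfn4*, *Oas3*, *Ifit2* and *Eif2ak2*, and the steepest falls in *Rsad2*, *Oasl1* and *Isg15*. These counts were no larger than those of genes at large. Of the members tested, 20.9% were higher and 14.0% lower, against 23.7% and 21.0% of all genes tested. Over both directions 34.9% of the members passed, against 44.7% of all genes. With a change of at least 1.5-fold as well, 7 members (16.3%) were higher and 4 (9.3%) lower, against 15.7% in each direction and 31.3% in all for genes at large. Upper-quartile scaling turned that even split over all genes, 2628 against 2628, into 1975 higher and 3227 lower. The median log2 fold change was 0.17 over the members and 0.01 over all genes, and the median size of the change was 0.35 over the members and 0.46 over all genes. Values of the groups did not overlap for 9 higher members (20.9%) and 5 lower members (11.6%), where 22.5% and 19.1% of all genes (41.6% in all) had no overlap. In a bulk sample, fewer cells of a type and less RNA per cell cannot be told apart, and this holds for each change below.

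**Figure D1:**
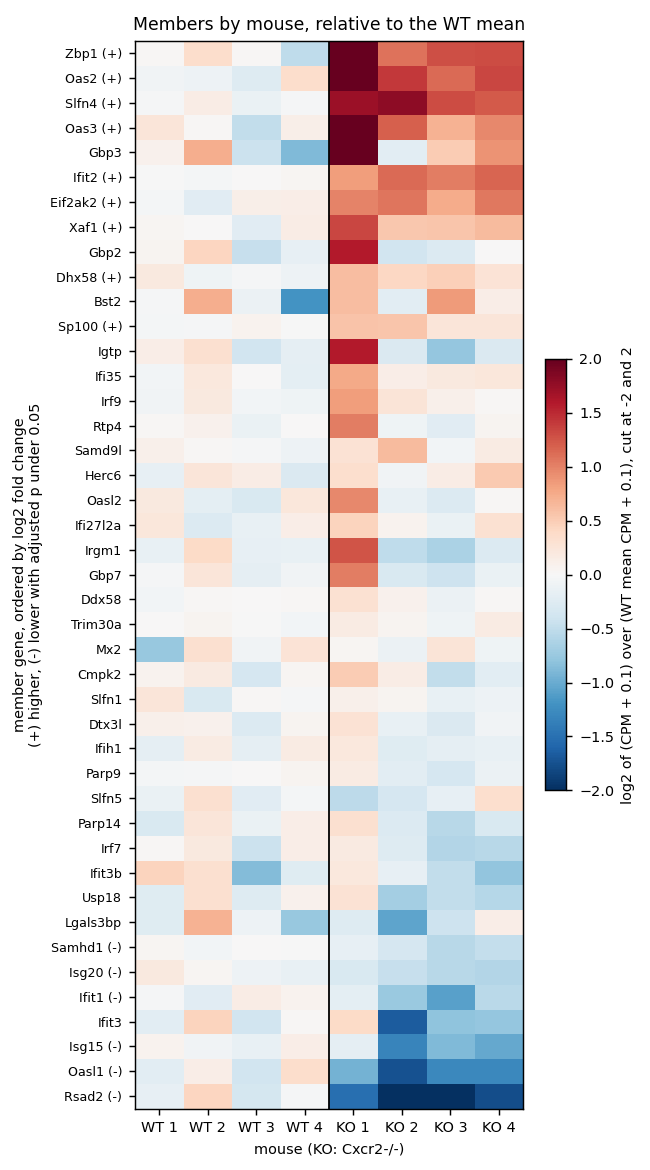
Heat map of the 43 members with counts (rows, ordered by log2 fold change) in the 8 mice (columns), coloured by log2 of CPM + 0.1 over the WT mean + 0.1 and cut at -2 and 2. Members marked (+) or (-) were higher or lower with an adjusted p under 0.05, and the column of *Cxcr2-/-* mouse 1 is darker red than the other *Cxcr2-/-* columns in many rows.

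The upstream sequence of 6 members is printed to show starts with the letters of an ISRE and starts without them: the 3 largest falls, 2 of the 6 largest rises and *Igtp*, which did not pass. Of the other large rises, *Zbp1* and *Oas2* had no entry, and the stretches of *Oas3* and *Eif2ak2*, which lie partly or wholly in exons, are not printed. Both hold ISRE letters between 250 bases before and 50 bases after the start, *Oas3* from 75 to 66 bases before the start. The sequences are RefSeq's, build GRCm38.p6, and give the 250 bases before the start of transcription, 5′ to 3′ on the strand of the gene (for *Oasl1* the first 214 of them, before exon bases of the annotation). Capitals mark the letters searched for as an ISRE, which are GAAA, any 2 bases and GAAA again, on either strand. *Rsad2* (chr12:26456453-26456702, minus strand), *Oasl1* (chr5:114922990-114923203, plus strand) and *Isg15* (chr4:156200819-156201068, minus strand) fell, *Igtp* (chr11:58199306-58199555, plus strand) was high in 1 mouse, and *Slfn4* (chr11:83174936-83175185, plus strand) and *Ifit2* (chr19:34550444-34550693, plus strand) rose.
Rsad2: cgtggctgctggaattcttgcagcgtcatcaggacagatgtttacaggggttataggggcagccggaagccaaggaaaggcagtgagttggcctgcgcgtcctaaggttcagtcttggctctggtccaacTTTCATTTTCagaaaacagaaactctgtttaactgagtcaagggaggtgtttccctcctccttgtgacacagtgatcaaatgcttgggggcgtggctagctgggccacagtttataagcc
Oasl1: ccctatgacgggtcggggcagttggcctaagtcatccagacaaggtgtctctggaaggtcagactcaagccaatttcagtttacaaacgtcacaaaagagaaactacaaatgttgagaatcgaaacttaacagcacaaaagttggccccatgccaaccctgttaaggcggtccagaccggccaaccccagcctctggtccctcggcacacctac
Isg15: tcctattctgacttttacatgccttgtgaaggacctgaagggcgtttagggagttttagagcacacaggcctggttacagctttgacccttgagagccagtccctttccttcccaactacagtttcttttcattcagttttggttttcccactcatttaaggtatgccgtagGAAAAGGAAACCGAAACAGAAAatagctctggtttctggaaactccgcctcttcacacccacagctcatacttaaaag
Igtp: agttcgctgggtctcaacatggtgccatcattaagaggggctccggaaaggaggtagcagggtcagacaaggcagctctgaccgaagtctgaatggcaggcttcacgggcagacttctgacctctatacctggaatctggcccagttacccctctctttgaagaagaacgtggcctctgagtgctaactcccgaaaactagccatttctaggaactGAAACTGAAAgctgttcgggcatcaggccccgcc
Slfn4: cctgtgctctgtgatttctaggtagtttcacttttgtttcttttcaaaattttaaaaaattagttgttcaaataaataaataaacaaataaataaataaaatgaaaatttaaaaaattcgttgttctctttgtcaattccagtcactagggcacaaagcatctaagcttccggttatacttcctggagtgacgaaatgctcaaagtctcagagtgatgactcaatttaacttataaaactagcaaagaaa
Ifit2: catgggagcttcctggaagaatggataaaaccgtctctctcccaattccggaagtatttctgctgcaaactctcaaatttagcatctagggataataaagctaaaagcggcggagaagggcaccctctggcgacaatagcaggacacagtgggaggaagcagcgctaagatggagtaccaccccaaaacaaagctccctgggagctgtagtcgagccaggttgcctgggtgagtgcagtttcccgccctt
In *Rsad2* the letters stand on the other strand, from 120 to 111 bases before the start. *Isg15* holds 3 overlapping matches between 78 and 57 bases before the start. *Igtp* holds 1 match from 34 to 25 bases before the start, and next to it, without overlap, the GAS letters TTCNNNGAA from 45 to 37 bases before it. The stretches of *Oasl1*, *Slfn4* and *Ifit2* hold no ISRE letters, and that of *Ifit2* holds GAS letters.

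RefSeq gives a window of 250 bases before to 50 bases after the start for 35 of the 44 members, and for 27025 mouse genes in all. The ISRE letters, on either strand, lie in the window of 17 of the 35 members (48.6%) and of 3.99% of all genes. The GAS letters lie in 8 of the 35 (22.9%) and in 9.55% of all genes. Among members that rose, 2 of 6 with a window held the ISRE letters, among those that fell 3 of 6, and among those that did not pass 12 of 22. A match of letters is a description of the sequence, and no binding was measured here. *Oas2*, *Zbp1*, *Dhx58*, *Usp18*, *Mx2*, *Ifi27l2a*, *Parp9*, *Parp14* and *Rtp4* had no entry.

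The OAS family makes or resembles the enzymes that answer double-stranded RNA with the second messenger 2-5A, which activates RNase L. Its 4 members split: *Oas2* and *Oas3* rose, *Oasl1* fell and *Oasl2* did not pass. Over all genes, 23.7% were higher and 21.0% lower. *Oas2* (chromosome 5 from 120730333 to 120749853 of GRCm38) was at 26.2, 25.4, 22.9 and 35.1 CPM in WT mice 1 to 4 and at 139, 73.4, 60.4 and 69.5 CPM in *Cxcr2-/-* mice 1 to 4. Every *Cxcr2-/-* mouse was above every WT mouse, and mouse 1 was far above the other three. The log2 fold change was 1.65 (SE 0.23, adjusted p = 1.12e-04), and 1.31 without *Cxcr2-/-* mouse 1. *Oas3*, next to it (chromosome 5 from 120753098 to 120777661), was at 88.3, 75.5, 52.9 and 81.0 CPM in WT mice and at 321, 169.9, 120.1 and 146 CPM in *Cxcr2-/-* mice. The groups did not overlap here either, with a log2 fold change of 1.35 (SE 0.26, adjusted p = 0.00118). The largest value again belonged to *Cxcr2-/-* mouse 1.

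*Oasl1* encodes a protein without synthase activity that is known to hold back the translation of *Irf7*. On chromosome 5 from 114923240 to 114937915, it was at 5.46, 6.95, 4.86 and 8.13 CPM in WT mice and at 3.26, 1.83, 2.54 and 2.53 CPM in *Cxcr2-/-* mice. All *Cxcr2-/-* values were below all WT values, and the log2 fold change was -1.32 (SE 0.22, adjusted p = 3.87e-04). Its neighbour *Oasl2* did not follow. It was at 129 to 187 CPM in WT, at 312 CPM in *Cxcr2-/-* mouse 1 and at 133 to 163 CPM in the other 3 *Cxcr2-/-* mice. Its log2 fold change was 0.23 (adjusted p = 0.448) and turned to -0.12 without that mouse.

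IFIT proteins bind viral RNA that lacks the cap marks of the host and block its translation. Of the 4 members on chromosome 19, *Ifit2* rose, *Ifit1* fell and *Ifit3* and *Ifit3b* did not pass, where 23.7% of all genes were higher and 21.0% lower. *Ifit2* (34550694 to 34576419) was at 5.37, 5.20, 5.43 and 5.50 CPM in WT mice and at 9.68, 12.0, 11.1 and 12.2 CPM in *Cxcr2-/-* mice. The WT values lay close together and the *Cxcr2-/-* values were all above them, with a log2 fold change of 1.06 (SE 0.13, adjusted p = 3.04e-05). It was the only IFIT gene, and with *Slfn5* the only member, at its lowest of the group in *Cxcr2-/-* mouse 1. *Ifit1* was at 4.10 to 5.32 CPM in WT and 2.21 to 4.20 CPM in *Cxcr2-/-* mice, groups that overlapped, and its log2 fold change was -0.62 (SE 0.21, adjusted p = 0.0277). This call was lost when WT mouse 1, 3 or 4 or *Cxcr2-/-* mouse 2 or 3 was left out, with adjusted p from 0.0504 to 0.0692. *Ifit3* and *Ifit3b*, near-identical copies, were at or under 1.75 CPM in every mouse. The counting set aside reads without a unique alignment, so these levels may be too low. The share set aside was 8.23% to 11.2% in WT and 10.4% to 13.3% in *Cxcr2-/-* libraries.

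Several members encode enzymes that act on nucleotides or nucleic acids. *Rsad2* encodes viperin, which makes a chain-terminating nucleotide from CTP, and had the largest fall of all members. On chromosome 12 from 26442746 to 26456452, it was at 17.4, 26.1, 15.2 and 19.1 CPM in WT mice and at 6.77, 3.98, 3.76 and 5.61 CPM in *Cxcr2-/-* mice. The lowest WT mouse was above the highest *Cxcr2-/-* mouse, and the log2 fold change was -1.95 (SE 0.21, adjusted p = 1.54e-05). *Cmpk2*, a mitochondrial nucleotide kinase encoded beside it on the opposite strand, was at 37.1 to 52.7 CPM in WT and 33.1 to 66.3 CPM in *Cxcr2-/-* mice, a log2 fold change of 0.04 (adjusted p = 0.890). *Samhd1*, which breaks down dNTPs, was at 1009.8, 945, 985 and 977 CPM in WT mice and at 873, 773, 668 and 707 CPM in *Cxcr2-/-* mice. Its groups were apart, though the change was small, with a log2 fold change of -0.37 (SE 0.11, adjusted p = 0.0122). *Isg20*, an exonuclease, was at 25.8, 23.2, 21.0 and 20.4 CPM in WT mice and at 18.3, 16.4, 15.3 and 15.0 CPM in *Cxcr2-/-* mice. It also fell without overlap (log2 fold change -0.48, SE 0.11, adjusted p = 0.00365). *Samhd1* lies on chromosome 2 from 157097533 to 157135265 and *Isg20* on chromosome 7 from 78913424 to 78920396.

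*Isg15* encodes the ubiquitin-like protein that is joined to other proteins after interferon. It lies on chromosome 4 from 156199424 to 156200818 and was at 13.9, 12.7, 11.9 and 14.6 CPM in WT mice and at 11.7, 5.28, 7.17 and 6.47 CPM in *Cxcr2-/-* mice. *Cxcr2-/-* mouse 1 came close to the lowest WT mouse, and the other three were lower. The log2 fold change was -0.79 (SE 0.21, adjusted p = 0.00755) with that mouse and -1.07 without it. The other 4 members of its group did not pass, where 44.7% of all genes passed. *Usp18*, which removes Isg15 and dampens the type I receptor, was at 2.94 to 4.44 CPM in WT and 2.16 to 4.35 CPM in *Cxcr2-/-* mice. *Herc6*, the mouse ligase that attaches Isg15, had a log2 change of 0.26 (adjusted p = 0.264). *Dtx3l* and *Trim30a*, which are ubiquitin ligases, had log2 fold changes of -0.04 and 0.08.

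Of the 5 members that are sensors of foreign nucleic acids or the kinase that shuts down translation, 3 rose and 0 fell, where 23.7% of all genes were higher and 21.0% lower; the group was not tested against other genes. *Zbp1*, a sensor of Z-form nucleic acids that can start necroptosis, had the largest rise of all members with all mice in the fit. On chromosome 2 from 173206612 to 173218923, it was at 2.68, 3.40, 2.67 and 1.82 CPM in WT mice and at 23.8, 5.70, 6.63 and 6.68 CPM in *Cxcr2-/-* mice. All *Cxcr2-/-* mice were above all WT mice, and mouse 1 was well above the other three. The log2 fold change of 2.01 (SE 0.42, adjusted p = 0.00196) became 1.26 (adjusted p = 5.30e-04) without that mouse, below *Slfn4* (1.47) and *Oas2* (1.31) in the same fit. *Eif2ak2*, the kinase PKR (chromosome 17 from 78852564 to 78882573), was at 4.82, 4.20, 5.37 and 5.44 CPM in WT mice and at 9.99, 10.5, 8.34 and 10.4 CPM in *Cxcr2-/-* mice. Here mouse 1 was one of a tight group, and the log2 fold change was 0.99 (SE 0.14, adjusted p = 1.42e-04). *Dhx58*, which encodes LGP2, rose by less (log2 fold change 0.45, SE 0.11, adjusted p = 0.00517), from 15.5 to 19.1 CPM in WT to 20.2 to 25.7 CPM. The RNA helicases RIG-I (*Ddx58*) and MDA5 (*Ifih1*), which signal to make interferon, had log2 fold changes of 0.08 (adjusted p = 0.514) and -0.08 (adjusted p = 0.645).

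Schlafens are a family of growth regulators of haematopoietic cells, some of which cut tRNA. *Slfn4* was the member with the highest level per kb of exon in both groups, at 238 CPM per kb in WT and 686 CPM per kb in *Cxcr2-/-* mice. On chromosome 11 from 83175186 to 83190216, it was at 931, 1049.6, 858 and 929.8 CPM in WT mice and at 3094, 3268, 2318 and 2194 CPM in *Cxcr2-/-* mice. The groups were far apart, with a log2 fold change of 1.53 (SE 0.15, adjusted p = 5.10e-06), the smallest adjusted p of any member. *Slfn1*, encoded 52.5 kb before it (83116849 to 83122670) and second in level per kb in WT at 194, was at 428, 292, 368 and 357 CPM in WT mice and at 386, 373, 325 and 337 CPM in *Cxcr2-/-* mice. These ranges lay inside each other, and the log2 fold change was -0.02 (adjusted p = 0.889). *Slfn5* had a log2 change of -0.14 (adjusted p = 0.583). Next in WT came *Samhd1*, at 107 CPM per kb. Reads that fit several schlafen genes may be missing from these counts.

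**Figure D2:**
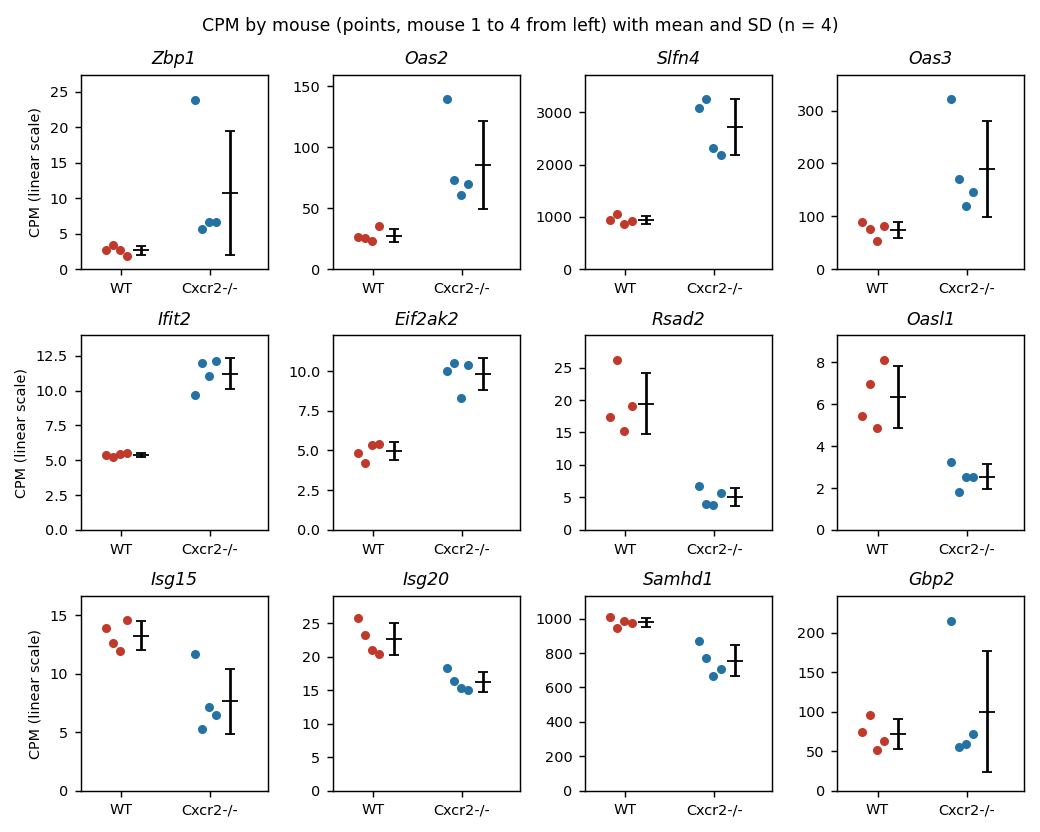
CPM (y axes, linear, from 0) of 12 members in each mouse (points, mouse 1 to 4 from left) with the mean and SD of the 4 mice per group, WT in red and *Cxcr2-/-* in blue. *Slfn4*, *Ifit2* and *Eif2ak2* rose in all 4 *Cxcr2-/-* mice alike, while in *Zbp1*, *Oas2*, *Oas3* and *Gbp2* mouse 1 stood far above the other three.

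None of the 6 interferon-induced GTPases passed, where 44.7% of all genes did. In 5 of these GTPases, all but *Mx2*, *Cxcr2-/-* mouse 1 was more than 2-fold above the mean of the other 3 *Cxcr2-/-* mice. Guanylate-binding proteins (*Gbp2*, *Gbp3*, *Gbp7*) and immunity-related GTPases (*Irgm1*, *Igtp*) attack the vacuoles of intracellular pathogens and answer above all to type II interferon. *Igtp* (chromosome 11 from 58199556 to 58207591) was at 22.3, 25.5, 15.6 and 18.0 CPM in WT mice and at 61.0, 16.7, 11.9 and 16.6 CPM in *Cxcr2-/-* mice. *Gbp3* (chromosome 3 from 142560026 to 142573209) was at 4.89, 7.64, 3.39 and 2.46 CPM in WT mice and at 19.9, 3.96, 6.56 and 8.63 CPM in *Cxcr2-/-* mice. In both genes *Cxcr2-/-* mouse 1 was highest of all 8, and the other three lay among or below the WT mice for *Igtp*. Their log2 fold changes were 0.38 (SE 0.41, adjusted p = 0.480) and 1.08 (SE 0.44, adjusted p = 0.0640). Without *Cxcr2-/-* mouse 1 they were -0.43 and 0.47 (adjusted p = 0.307 for *Gbp3*). *Gbp2* was at 51.8 to 96.1 CPM in WT, 214 CPM in mouse 1 and 54.9 to 72.0 CPM in the other 3 *Cxcr2-/-* mice. *Irgm1* was at 19.2 to 28.2 CPM in WT, 51.7 CPM in mouse 1 and 13.9 to 17.8 CPM in the other 3. *Gbp7* followed the same order, at 31.2 to 42.1, 71.9 and 26.6 to 32.4 CPM. *Mx2*, listed as a polymorphic pseudogene in the annotation, was under 0.5 CPM in every mouse. Part of the exon bases of *Igtp* (8.01%) and *Gbp7* (11.3%) also belong to another gene on the same strand. Reads that fit several GBP genes may be missing from the counts.

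The interferon regulatory factors and ADP-ribosyltransferases among the members did not pass with all mice in the fit, where 44.7% of all genes passed. *Irf9*, the DNA-binding part of the complex with Stat2, was at 66.3 to 80.8 CPM in WT and 71.8 to 126 CPM in *Cxcr2-/-* mice (log2 fold change 0.35, adjusted p = 0.0929). *Irf7*, the factor that amplifies interferon alpha, was at 43.5 to 66.9 and 39.0 to 66.5 CPM (log2 fold change -0.27, adjusted p = 0.230). The ADP-ribosyltransferases *Parp9* and *Parp14* had log2 fold changes of -0.11 and -0.17 (adjusted p = 0.414 and 0.458). Without *Cxcr2-/-* mouse 1, *Irf7* and *Parp14* passed as lower (adjusted p = 0.0246 and 0.0417).

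Of the 9 remaining members, which encode membrane, secreted and other proteins, 8 were tested. Among these 2 rose (25.0%) and 0 fell, where 23.7% of all genes were higher and 21.0% lower. *Sp100*, a component of nuclear bodies that silences viral DNA, was at 182 to 196 CPM in WT and 221 to 277 CPM in *Cxcr2-/-* mice (log2 fold change 0.41, SE 0.10, adjusted p = 0.00571). *Xaf1*, an antagonist of the apoptosis inhibitor XIAP, was at 1.68 to 2.23 CPM in WT, 5.18 CPM in *Cxcr2-/-* mouse 1 and 2.93 to 3.14 CPM in the other 3 (log2 fold change 0.84, SE 0.23, adjusted p = 0.00957). Both were without overlap. *Samd9l*, *Ifi35*, *Rtp4*, *Ifi27l2a*, *Bst2* and *Lgals3bp* did not pass, with log2 fold changes from -0.36 to 0.43. *Ifi44* was at 0 counts in all 8 libraries, a count of 0 that allows up to 0.0649 to 0.0877 CPM, and so was its paralog *Ifi44l*, which is not a member.

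Within the *Cxcr2-/-* group, mouse 1 stood apart from the other three for these genes. It had the highest value of the 4 *Cxcr2-/-* mice in 33 of the 43 members (76.7%), where it was highest in 28.9% of all genes. Its level was more than 1.5-fold above the mean of the other 3 *Cxcr2-/-* mice in 21 members (48.8%, against 5.68% of all genes) and more than 2-fold above it in 11 (25.6%, against 1.43%). The excess differed by role. The GTPases were a median of 3.21-fold above the mean of the other three, led by *Igtp* at 4.05-fold, and the OAS family 2.09-fold. The schlafens were at 1.12-fold and the sensors and kinases at 1.24-fold, with *Zbp1* at 3.76-fold as the exception. In WT, mouse 2 was highest in 22 of 43 members (51.2%, against 26.7% of all genes).

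**Figure D3:**
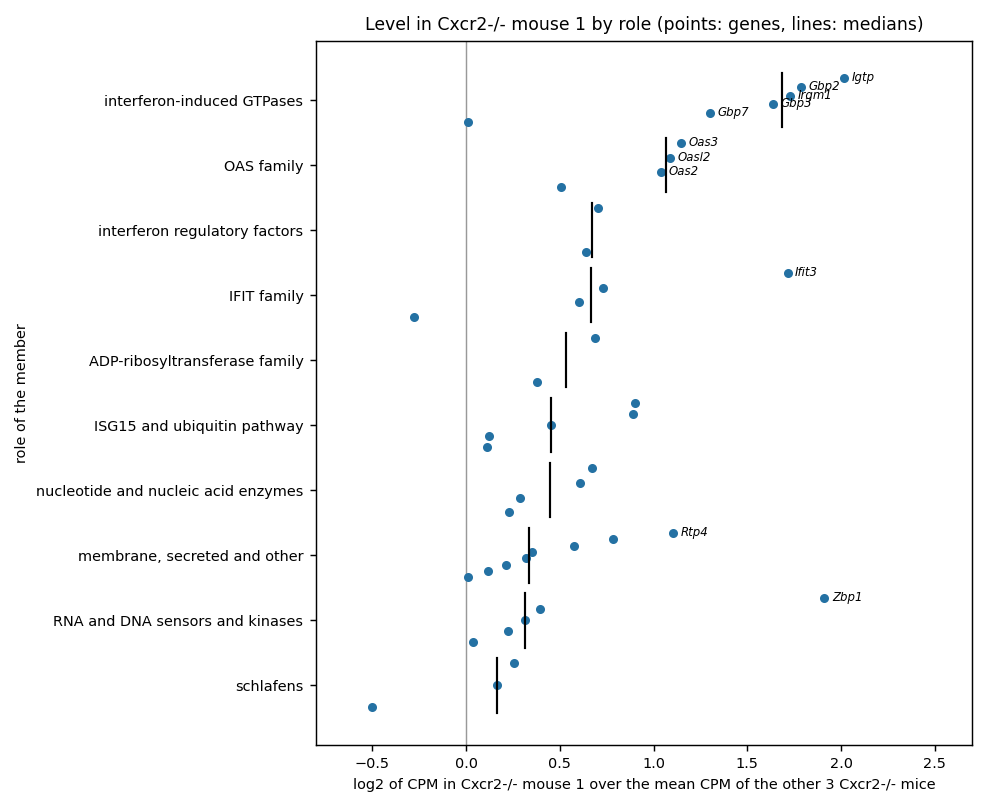
Log2 of the CPM in *Cxcr2-/-* mouse 1 over the mean CPM of the other 3 *Cxcr2-/-* mice (x axis) for each member (points), by role (y axis), with black lines at the median of the role. The GTPases and the OAS family lie furthest to the right, and the members above 2-fold are named.

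The mean of log2(CPM + 1) over the members put the same mouse first. It was 4.54, 4.66, 4.40 and 4.51 in WT mice 1 to 4 and 5.10, 4.51, 4.44 and 4.58 in *Cxcr2-/-* mice 1 to 4. Apart from mouse 1, the *Cxcr2-/-* means lay among the WT means. The summed CPM of the members was 3839 to 4188 in WT and 5009.9 to 7287 in *Cxcr2-/-* mice, and without *Slfn4* it was 2981 to 3257 and 2692 to 4193. The sums of the groups overlapped only without *Slfn4*.

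*Cxcr2-/-* mouse 1 was the deepest of the 4 *Cxcr2-/-* libraries, at 43789253 counts on genes, within the WT range. Of the 8 libraries it had the lowest share of read pairs that matched no counted feature (26.7%, against 29.9% to 31.9% in the other *Cxcr2-/-* libraries). Its primary granule genes, a mark of early neutrophils, were a median of 0.231-fold of the mean of the other three, and its secondary granule genes 1.30-fold. Markers of other cell types went both ways in it. The medians over the tested genes of the T and NK cell list (1.33-fold) and the platelet list (1.31-fold) were above the mean of the other three. Those of the B cell (0.569-fold), monocyte and macrophage (0.773-fold), plasmacytoid dendritic cell (0.848-fold), conventional dendritic cell (0.785-fold), erythroid (0.201-fold) and eosinophil and basophil (0.499-fold) lists were below it, and 0 genes of these 8 lists were more than 1.5-fold above it. The part of the stage genes, the marker lists and the read share in the excess of mouse 1 was not tested.

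Without *Cxcr2-/-* mouse 1, 9 of the 43 members were higher and 11 of the 43 lower. Of the 17246 genes in the same fit, 3774 (21.9%) were higher and 3302 (19.1%) lower. The median log2 fold change of the members was -0.07. The 9 that rose and the 6 that fell with all mice did so in both fits. *Irgm1* (log2 fold change -0.46, adjusted p = 0.0304), *Ifit3* (-1.26, adjusted p = 0.0394), *Irf7* (-0.45, adjusted p = 0.0246), *Usp18* (-0.59, adjusted p = 0.0443) and *Parp14* (-0.37, adjusted p = 0.0417) joined those that fell. *Oasl2*, *Cmpk2*, *Gbp2*, *Gbp7*, *Rtp4*, *Irgm1* and *Igtp* changed sign.

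**Figure D4:**
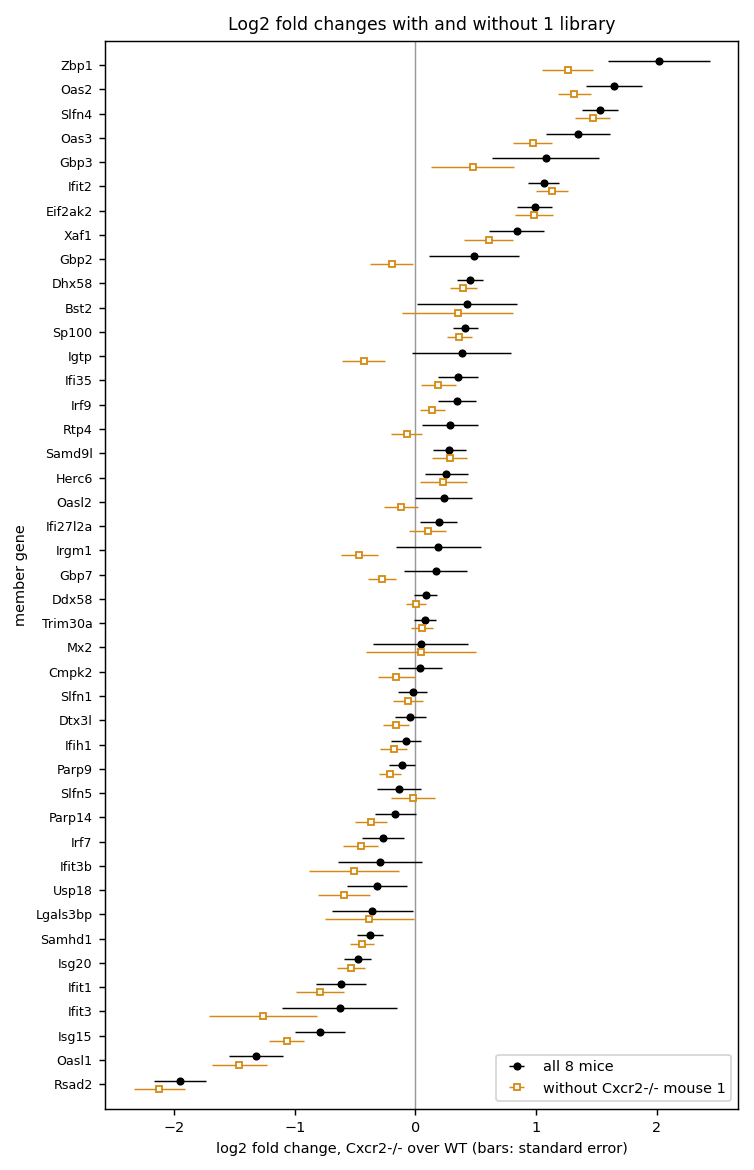
Log2 fold change with its standard error (x axis, *Cxcr2-/-* over WT) of each tested member (y axis) with all 8 mice (black circles) and without *Cxcr2-/-* mouse 1 (open orange squares). Without that mouse most points move left, by the most for *Irgm1*, *Igtp*, *Zbp1*, *Gbp2*, *Gbp3* and *Ifit3*, while *Slfn4*, *Ifit2*, *Eif2ak2* and *Rsad2* keep their side.

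Some members that changed lie beside members that did not pass. The ratio of neighbours within 100 kb was compared between groups for 11 pairs, as a log2 ratio within each mouse, and tested by exact permutation of the mice, two-sided, for which 4 mice against 4 allow no p below 0.0286. *Rsad2* over *Cmpk2*, 12.8 kb apart on chromosome 12, was 0.356 to 0.495 in WT and 0.0772 to 0.140 in *Cxcr2-/-* mice (exact permutation p = 0.0286, adjusted p = 0.105, n = 4 each). *Slfn1* over *Slfn4* was 0.278 to 0.459 in WT and 0.114 to 0.154 in *Cxcr2-/-* mice, with the same p values. *Oasl2* over *Oasl1*, 11.0 kb apart, was 20.1 to 33.6 in WT and 52.3 to 95.7 in *Cxcr2-/-* mice, again with the same p values. In these 3 pairs the groups did not overlap and all 4 *Cxcr2-/-* mice, mouse 1 included, moved the same way. *Rsad2*, *Slfn4* and *Oasl1* were already called without overlap, so these ratios reuse the same values and are no separate evidence. Among single genes 41.6% had no overlap, and no such share was taken for pairs of other genes. No pair passed after adjustment over the 11. With only these 3 pairs at the lowest possible p, the adjusted p could not fall under 0.05, so the adjusted test cannot decide about them. *Ifit2* over *Ifit3* was a geometric mean of 8.45 in WT and 32.6 in *Cxcr2-/-* mice (exact permutation p = 0.0571, adjusted p = 0.126), with overlap. *Oas2* over *Oas3*, which rose together, was 0.370 and 0.460 (exact permutation p = 0.114, adjusted p = 0.180).

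**Figure D5:**
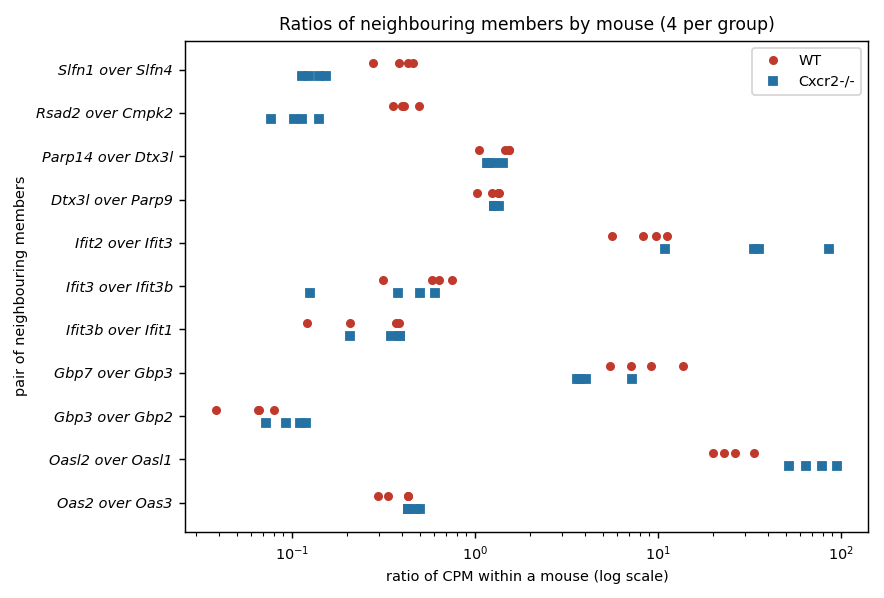
Ratio of CPM of neighbouring members within each mouse (x axis, log scale) for 11 pairs (y axis), WT as red circles and *Cxcr2-/-* as blue squares, 4 mice each. The groups are apart for *Slfn1* over *Slfn4*, *Rsad2* over *Cmpk2* and *Oasl2* over *Oasl1*.

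The genes around the members were read from lists of the same pathway. Interferons themselves were close to absent: 17 of 21 ligand genes had no count in any library, *Ifnb1* and all listed *Ifna* genes among them, and *Ifng* was at or under 0.122 CPM. *Ifnk*, interferon kappa, was the only ligand tested, at 0.784 to 1.39 CPM in WT and 0.202 to 0.462 CPM in *Cxcr2-/-* mice (log2 fold change -1.43, SE 0.34, adjusted p = 0.00477). Of 6 receptor chains, 2 rose and 1 fell, where 23.7% of all genes were higher and 21.0% lower. The chains of the type I receptor parted: *Ifnar1* was at 137 to 149 CPM in WT and 102 to 109 CPM in *Cxcr2-/-* mice (log2 fold change -0.41, adjusted p = 0.00114), and *Ifnar2* at 61.4 to 68.5 and 75.0 to 93.0 CPM (0.36, adjusted p = 0.00586). *Ifnlr1*, of the type III receptor, had a log2 change of 0.46 (adjusted p = 0.0228), and *Il10rb*, its partner, one of -0.14 (adjusted p = 0.189). The type II chains *Ifngr1* and *Ifngr2* had log2 fold changes of 0.21 (adjusted p = 0.169) and -0.04 (adjusted p = 0.777).

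Of 6 receptor kinases and STATs, *Stat2* rose (log2 fold change 0.60, adjusted p = 0.0268), and *Jak1* (-0.41, adjusted p = 0.00554) and *Jak2* (-0.45, adjusted p = 0.00116) fell. Of 7 further interferon regulatory factors, none rose and *Irf1* (-0.76, adjusted p = 0.0133), *Irf5* (-0.67, adjusted p = 0.00969) and *Irf2* (-0.49, adjusted p = 7.08e-04) fell. *Irf1*, an activator of the GTPase genes, was at 265 to 387 CPM in WT, 311 CPM in *Cxcr2-/-* mouse 1 and 134 to 176 CPM in the other three. Among 8 inhibitors of the pathway, 2 rose (*Ptpn11* and *Pias4*) and 3 fell (*Socs1*, *Socs3* and *Pias1*). Among 13 sensors and adaptors upstream of interferon, *Ikbke* (1.15, adjusted p = 4.62e-06), *Ticam1* (0.91, adjusted p = 3.44e-04) and *Cgas* (0.88, adjusted p = 6.90e-04) rose. The endosomal RNA receptors *Tlr7* (-0.88, adjusted p = 1.35e-04) and *Tlr8* and the adaptor *Traf3* fell. Shares higher and lower were 16.7% and 33.3% for the kinases and STATs and 0.0% and 42.9% for the regulatory factors. They were 25.0% and 37.5% for the inhibitors and 23.1% and 23.1% for the sensors and adaptors. Over all genes, 23.7% were higher and 21.0% lower, and no list was tested against other genes.

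A list of 74 further interferon-stimulated genes, of which 60 were tested, changed in both directions. In it 16 were higher (26.7%) and 11 lower (18.3%), near the 23.7% and 21.0% of all genes, with a median log2 fold change of 0.02. Other OAS synthases rose with *Oas2* and *Oas3*: *Oas1g* had a log2 change of 2.80 (adjusted p = 5.33e-05) and *Oas1a* one of 1.60 (adjusted p = 4.45e-05). Reads that fit several near-identical *Oas1* copies may be missing from these counts. *Gbp9*, a GTPase, was at 116 to 146 CPM in WT and 30.2 to 47.1 CPM in *Cxcr2-/-* mice, a log2 fold change of -1.78 (adjusted p = 7.25e-07), and mouse 1 was below every WT mouse there. *Tgtp1*, a further GTPase, fell by 1.81 on the log2 scale (adjusted p = 0.00410). *Cxcr2-/-* mouse 1 was more than 1.5-fold above the mean of the other three in 24 of the 60 (40.0%), against 5.68% of all genes.

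Other genes moved with genotype beside these, where 23.7% of all genes were higher and 21.0% lower. Of the 10 neutrophil markers 8 were higher and 1, *Csf3r*, was lower, and the list summed to 41228 to 57270 CPM in WT and 91295 to 118132 CPM in *Cxcr2-/-* mice. Primary granule genes were higher in 5 of 5 (summed CPM 4.37 to 17.3 in WT and 70.5 to 386 in *Cxcr2-/-* mice), secondary granule genes in 6 of 6 and proliferation genes in 9 of 9. *Camp*, *Ltf* and *Cd177* stand in both the neutrophil and the secondary granule lists, so these 2 counts are not independent. B cell markers were lower in 7 of 8 (39.7 to 91.4 CPM summed in WT and 18.2 to 42.2 in *Cxcr2-/-* mice), and the summed conventional dendritic cell list, nearly all *Itgax*, was at 487 to 720 and 115 to 167 CPM, with 3 of 6 lower. The monocyte and macrophage list summed to 709 to 827 and 853 to 983 CPM (3 higher and 2 lower of 10), and the T and NK cell list, nearly all *Cd3d*, to 99.2 to 119 and 92.4 to 140 CPM (1 lower of 6 tested). The list of plasmacytoid dendritic cells, the main source of type I interferon, summed to 14.3 to 21.7 CPM in WT and 18.6 to 25.0 CPM in *Cxcr2-/-* mice. Most of this sum was *Tcf4*, at a mean of 13.6 and 17.4 CPM, while *Siglech* was at 0.129 and 0.0624 CPM. Of the 4 tested genes of the list 0 passed, with a median log2 fold change of 0.39, and 1 of them is *Bst2*, which is also a member. The erythroid list summed to 2.11 to 4.57 CPM in WT and 1.72 to 12.0 CPM in *Cxcr2-/-* mice, the platelet list to 5.92 to 7.94 and 4.07 to 6.62 CPM, and the eosinophil and basophil list to 48.8 to 69.2 and 37.7 to 64.4 CPM. With a covariate for the B cell, T and NK cell and monocyte lists, 9 members were higher and 6 lower, as without it. *Xaf1* and *Sp100* passed narrowly in that fit (adjusted p = 0.0452 and 0.0489). The covariate is a mean over lists that went different ways with genotype, and it leaves out the conventional dendritic cell list. The part of other cell types in the changes was therefore not tested by it. The part of cell stage in the changes of the members was not tested.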

How the data were processed

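RNA of sorted spleen neutrophils from 4 WT and 4 *Cxcr2-/-* mice was measured by RNAseq after removal of ribosomal RNA, with directional paired-end libraries. The authors checked reads with FastQC, trimmed them, aligned them to mm10 with STAR, counted them on genes with HTSeq and deposited whole-number counts per gene without normalization. The annotation release and the strand setting of the counting are not given in the sources used here, so counts of genes that overlap others on either strand are uncertain. Symbols and positions came from GENCODE M21 (GRCm38), which lacks 3281 of the 55414 identifiers (1.42% of the counts). Of the members, 7 share exon bases with another gene on the same strand and 10 with one on the opposite strand. Rows of HTSeq's own totals were left out of library sizes.

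Groups and replicate numbers came from the labels. No 2 libraries of a group were near copies (chi-square of their counts 23.9 to 99.0 per gene, far above counting error). That mice of a group are separate animals was taken from the labels, and same-numbered mice of the 2 groups are different animals.

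The whole table was fitted in R 4.3.3 with edgeR 4.0.16 (quasi-likelihood test, TMM, filterByExpr, Benjamini-Hochberg adjustment), and rows of the members were read from it. The study's tool, DESeq2 1.42.0, was an alternative, as were other scalings, filters, a replicate block, a covariate for other cell types and each library left out. Restriction to protein-coding genes was added after the data were seen. The steps were tested on simulated counts. Dixon's test picked single mice that stood apart.

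The members, the pathway and marker lists and their roles were chosen with earlier results of these data known. Values in every mouse are given for up to 6 of the largest rises and falls among members that passed at a mean of at least 5 CPM in 1 group (6 rises and 5 falls), the 3 highest levels per kb and the 3 widest spreads within a group. *Gbp9*, *Irf1* and other genes of the lists are named by size of change among those that passed.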

Additional observations from a re-analysis of the deposited data

Results flagged for a closer look

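Dixon's test for a sample far from the others of its group was run on 86 groups of 4 mice (43 members in each genotype), and 14 groups passed its 95% critical value, where chance flags about 1 in 20. In 11 of the 14, the mouse that stood apart was *Cxcr2-/-* mouse 1, each time as the highest. The RNA sensors and synthases among them were *Oas2* (139 CPM, others 60.4 to 73.4), *Oasl2* (312 CPM, others 133 to 163) and *Zbp1* (23.8 CPM, others 5.70 to 6.68). The GTPases were *Gbp2* (214 CPM, others 54.9 to 72.0), *Gbp7* (71.9 CPM, others 26.6 to 32.4), *Irgm1* (51.7 CPM, others 13.9 to 17.8) and *Igtp* (61.0 CPM, others 11.9 to 16.7). The others were *Usp18* (4.35 CPM, others 2.16 to 2.49), *Ifi35* (12.3 CPM, others 7.94 to 8.51), *Xaf1* (5.18 CPM, others 2.93 to 3.14) and *Rtp4* (23.0 CPM, others 9.66 to 11.8). In WT, mouse 2 was highest for *Irf9* (80.8 CPM, others 66.3 to 67.9) and *Irgm1* (28.2 CPM, others 19.2 to 19.6), and mouse 3 was lowest for *Dtx3l* (51.3 CPM, others 64.0 to 65.9). Members are read from the same libraries, so these 14 are not independent of each other.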

How the results depend on the processing

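Across 17 alternatives, 14 of the 15 members that passed did so in every one, the exception being *Ifit1*, and 0 of the 15 changed sign. Leaving out single libraries gave 5 to 11 lower members and a median log2 fold change of the members from -0.072 to 0.22, with 11 and -0.072 without *Cxcr2-/-* replicate 1. Of 729 values of single members, 686 kept their call and direction, 9 gained a call, 5 lost it and 29 changed sign, none of these 29 in a member that passed with all mice.

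The log2 fold changes that changed sign, for which the cause was not tested, were as follows. With upper-quartile scaling, which put the median of all genes at -0.11, they were *Mx2* -0.076, *Ddx58* -0.037, *Cmpk2* -0.085 and *Trim30a* -0.040. Scaling by total counts gave *Mx2* -0.056, *Ddx58* -0.013, *Cmpk2* -0.069 and *Trim30a* -0.012. With at least 10 counts in every library *Cmpk2* was at -0.0060. The covariate for other cell types gave *Mx2* -0.033, *Cmpk2* -0.16, *Slfn5* 0.046 and *Lgals3bp* 0.17, and protein-coding genes only *Mx2* -0.032 and *Cmpk2* -0.042. Leaving out single libraries gave ranges from -0.12 to 0.35 for *Oasl2*, -0.20 to 0.70 for *Gbp2*, -0.28 to 0.30 for *Gbp7*, -0.072 to 0.41 for *Rtp4*, -0.46 to 0.37 for *Irgm1* and -0.43 to 0.61 for *Igtp*, each negative only without *Cxcr2-/-* replicate 1. Such ranges were -0.16 to 0.16 for *Cmpk2*, -0.19 to 0.20 for *Mx2*, -0.16 to 0.022 for *Dtx3l* and -0.14 to 0.071 for *Slfn1*.

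Same-numbered mice did not deviate together (correlations 0.15, -0.19, 0.24 and -0.31). With the replicate block, 9 members were higher and 6 lower, no call changed, *Irgm1* turned to -0.031, and over all genes 2470 were higher and 2518 lower with 1.5-fold, against 2628 and 2628. *Gbp3* passed without the filter on low counts (adjusted p = 0.00609) and without WT replicate 2 (0.0282) or *Cxcr2-/-* replicate 2 (0.0193). Members with a mean under 1 CPM over all mice, such as *Mx2*, *Ifit3* and *Bst2*, had standard errors of 0.40 to 0.48, so changes of that size were not detectable in them.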
